A study of Mus musculus with 4 samples.

Results

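Tumor MYCN peaks inside genes are the intervals of the tumor anti-MYCN list that the deposited table places within the gene it pairs them with. They were chosen by that label alone, on assembled chromosomes, with rows of the same interval counted once. There were 385 such peaks, from 387 rows, among 1617 tumor peaks in all and 1527 tumor peaks on assembled chromosomes. Their share of the latter was 25.2% (exact 95% Clopper-Pearson interval 23.1 to 27.5). The peaks were paired with 364 gene names, and none lay on a scaffold. These intervals allow for counting error alone, as if each peak were independent of the rest.

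The study profiled MYCN in mouse liver tumors labelled MYCN+AKT and in matched non-tumor liver by CUT&RUN, in which an antibody brings a nuclease to a bound protein so that the chromatin around it is cut out and sequenced. It has 4 groups of 1 library each: each tissue gave an anti-MYCN library and an input library of chromatin sheared by sonication. The labels give no strain, age, way of delivering MYCN and AKT, or number of pooled animals. Each peak carries the authors' own score, read here as a −log10 q, of the evidence that the antibody signal exceeded input. It does not measure the size of the signal, and strong and weak below refer to this score. The depth of the libraries is unknown. With 1 library per group there is no replicate check, so no p-value is given and differences between classes are descriptions. Labelled tissue and cell type could not be checked against marker genes, since peaks do not measure expression. Coordinates are in GRCm38.

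MYCN is a MYC-family transcription factor that binds DNA as a dimer with MAX, with a preference for the E-box letters CACGTG. It is known for occupying promoters of genes for growth, ribosome production and metabolism, and at high levels also enhancers, some of which lie in introns. AKT is a kinase of the insulin and growth factor pathway, and MYC proteins and AKT together drive liver tumors in mice.

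The promoters nearest to an inside peak are shown first, since MYCN is best known at gene starts and these are the 2 places where the centre of a member lay within 1 kb of a start listed for its gene in RefSeq (GRCm38.p6). The next nearest centre, in Ttc41, lay 1085 bp from a start (chosen after its value was seen). Each sequence is the 250 bases before that start, 5′ to 3′ on the gene's strand. Capitals mark the bases covered by the peak.
Pde4a: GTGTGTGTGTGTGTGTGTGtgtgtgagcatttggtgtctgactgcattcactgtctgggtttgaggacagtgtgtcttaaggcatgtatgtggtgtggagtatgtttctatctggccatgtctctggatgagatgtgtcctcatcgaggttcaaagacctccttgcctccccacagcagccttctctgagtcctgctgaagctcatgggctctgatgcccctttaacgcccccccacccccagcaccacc
Steap3: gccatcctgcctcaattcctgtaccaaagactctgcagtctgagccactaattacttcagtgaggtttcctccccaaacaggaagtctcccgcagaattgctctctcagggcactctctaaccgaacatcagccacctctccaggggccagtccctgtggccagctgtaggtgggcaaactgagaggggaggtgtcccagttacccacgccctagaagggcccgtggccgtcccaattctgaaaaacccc
The Pde4a window, of a phosphodiesterase gene that degrades cyclic AMP, lies at chr9:21196455-21196704 on the + strand and precedes 1 of 3 starts listed for the gene. The peak (chr9:21196354-21196473, −log10 q 3.20) covered its outermost 19 bases, with its centre 292 bp and its nearer edge 232 bp from the start. Those letters belong to a run of at least 25 alternating G and T, counted from the window's first base. Bases further out were not read. Steap3, which encodes a metalloreductase of iron uptake, has its window at chr1:120258879-120259128 on the - strand, before 1 of 4 starts listed for the gene. Its peak (chr1:120258053-120258177, −log10 q 4.33) had its centre 763 bp and its nearer edge 701 bp beyond the start, so no base is in capitals. Both starts are inner ones: the peak centres lay 16835 bp (Pde4a) and 12966 bp (Steap3) from the nearer end of the gene. Neither window holds CACGTG. Of 379 pairs of an inside peak and a gene that holds it in RefSeq, the Pde4a peak was the only 1 to overlap a listed promoter window of any gene, where a window runs from 250 bases before to 50 after a start. The gene had a listed start in 295 of these pairs. Overlap with a start that is not listed could not be seen. A peak labelled inside cannot span the outer start of its gene, so the low count partly follows from the label. Of the 379 pairs, 0 had a peak centre within 1 kb of either end of the gene, and the least distance was 1114 bp. No tumor peak on assembled chromosomes carried a label of overlap with a gene start. CACGTG (the same letters on both strands) was in 21 of 385 promoter windows of 276 genes with an inside peak (5.45%, interval 3.41 to 8.22), beside 2349 of all 32851 windows (7.15%). The peaks themselves were not searched, since no genome sequence was used.

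The strongest inside peak, at −log10 q 1236, lay in Chl1, a neural cell adhesion gene (chr6:103649082-103649262, 181 bp wide), 138296 bp from the nearest start listed for it. Mocos, the molybdenum cofactor sulfurase gene, followed at 637 (chr18:24677123-24677528), and Cdk5rap2, a centrosome gene, at 603 (chr4:70378123-70378247). The Cdk5rap2 peak was only 125 bp wide, while the Mocos peak was 406 bp wide, so high scores came with narrow as well as wide intervals. Mdga2, a synaptic adhesion gene, held a peak of 526 (chr12:67059175-67059654).

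A further strong peak lay in Bckdhb, which encodes a subunit of the enzyme that breaks down branched-chain keto acids (chr9:83939388-83939719, −log10 q 232). Cfap43, a cilium gene, had a peak of 209 (chr19:47826404-47826871) and Epm2a, the gene of the glycogen phosphatase laforin, one of 179 (chr10:11350613-11350810). Gt(ROSA)26Sor, a long noncoding RNA gene, came next at 152 (chr6:113076026-113076235). The sodium-calcium exchanger gene Slc8a1 reached 126 (chr17:81571830-81572152) and the zinc finger gene Zbtb46 108 (chr2:181427993-181428430). In all, 11 inside peaks (2.86%) scored 100 or more.

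Below 100 the 20 strongest peaks continued with Snd1, a nuclease-domain coactivator gene (98.6), 2 peaks in the noncoding gene 2700054A10Rik (88.8 and 79.9), Ankar (70.8), Vps13d, a lipid transfer gene (69.2), Zfyve26, an endosomal gene (64.8), and Tmem67, a cilium gene (54.8). A chromosome Y interval paired with both Gm20852 and LOC108168565 (chrY:63294033-63294171) had 49.9, and Zpbp, a sperm acrosome gene, 44.1. Gpt2, the mitochondrial alanine aminotransferase gene, lay just below at 42.9; it was chosen after its value was seen. None of the 20 lay in a cluster of 3 or more tumor peaks with neighbours at most 10 kb apart. Such clusters held only 0.779% of inside peaks and 2.95% of all tumor peaks on assembled chromosomes, so this does not set the 20 apart. Of the 20, 2 lay within 10 kb of another tumor peak. The 20 span adhesion, cilium, transport, metabolic and noncoding genes.

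**Figure D1:**
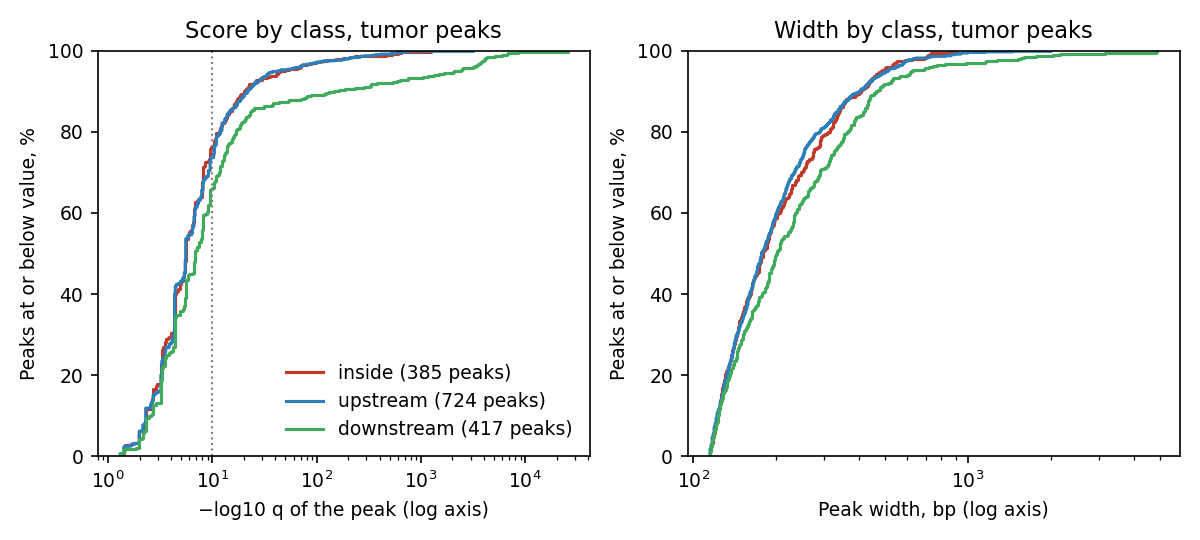
Cumulative share of tumor peaks (vertical axis, %) by −log10 q (left, log axis, dotted line at 10) and by width in bp (right, log axis) for the 385 inside, 724 upstream and 417 downstream peaks. The inside and upstream curves run close together, and the downstream curve lies to the right. A score of 100 or more was reached by 11% of downstream, 2.86% of inside and 2.90% of upstream peaks.

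Inside peaks were mostly weak and narrow. Their median −log10 q was 5.54 (interval of the median 5.37 to 6.0), with quartiles of 3.27 and 9.50 and a lowest value of 1.3. Upstream peaks had the same median of 5.54, and downstream peaks 6.81 (6.45 to 7.88). A score of 10 or more was reached by 90 inside peaks (23.4%, interval 19.2 to 27.9), beside 27.7% of all tumor peaks on assembled chromosomes, 191 upstream peaks (26.4%) and 141 downstream peaks (33.8%, 29.3 to 38.6). Part of the distance to the downstream class moved with clusters, which held 33 downstream, 9 upstream and 3 inside peaks. Without clustered peaks the shares were 23.3% inside, 25.7% upstream and 28.4% downstream, and the interval of the downstream share (23.9 to 33.2) overlaps that of the inside share (19.1 to 27.9).

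The median width was 180 bp (171 to 190) inside, 177 bp upstream and 201 bp downstream. Of the inside peaks 16 (4.16%) were 500 bp or wider, beside 5.76% of all tumor peaks on assembled chromosomes and 5.25% of upstream peaks. Under 150 bp were 132 inside peaks (34.3%), beside 32.2% of all tumor peaks and 33.0% of upstream peaks. The widest lay in 2700054A10Rik (908 bp), Atl2, an endoplasmic reticulum shaping gene (860 bp), and the receptor gene Gpr180 (734 bp, −log10 q 8.44). At the other end 5 peaks shared the narrowest width of 115 bp, in Rbms3, Ntng1, Mpp3, Prkca and Hs6st3. Across the 385 peaks score and width had a Spearman's rho of 0.385, given as a description because both come from the same reads.

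Many inside peaks had exactly the same score. The 385 peaks had 154 different values of −log10 q, and 215 of them (55.8%) had a value found in at least 10 tumor peaks, a share of 59.5% upstream and 54.0% downstream. The value 4.33 alone was held by 29 inside peaks, among them those in Ntng1, Csmd1, Steap3 and Ncoa2, and 5.54 by 18. Peaks of one value differed in width, from 115 to 314 bp at 4.33. Within such a group the score gives no order, so the peaks in Csmd1 and Steap3 cannot be ranked.

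**Figure D2:**
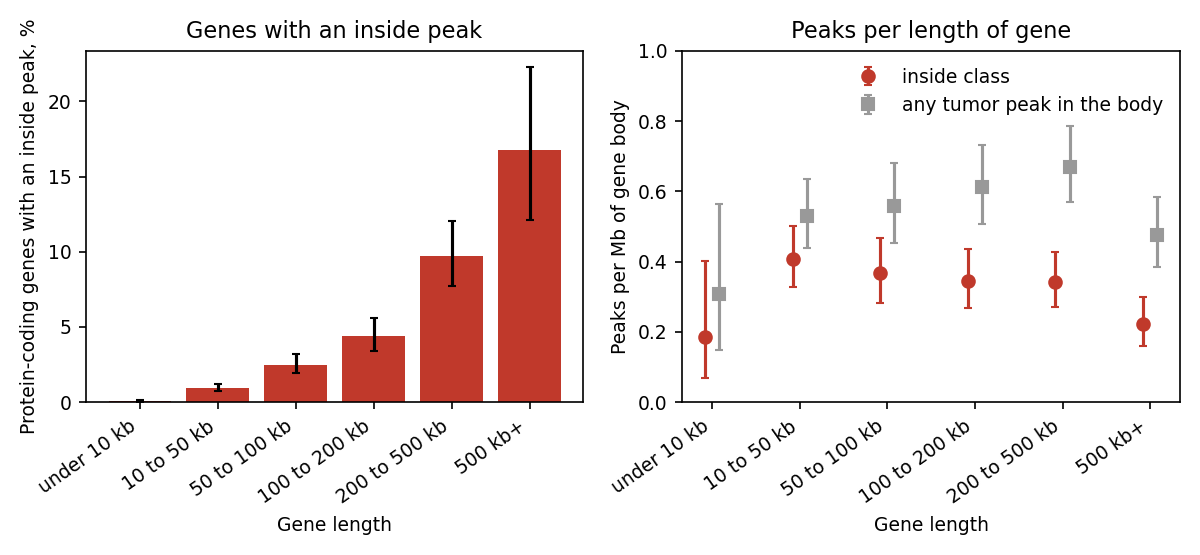
Left, the share of protein-coding genes with an inside peak (%) by gene length; right, peaks per Mb of gene body for inside peaks (red) and for tumor peaks of any class centred in the gene (grey). Bars and whiskers are 95% exact intervals of counting error. The share of genes climbs with length to 16.7%, while the inside peaks per Mb stay between 0.184 and 0.406.

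Genes with an inside peak were long. Of 364 gene names, 362 (99.5%) were found in RefSeq, and for 356 the peak lay within the gene as RefSeq places it: 331 protein-coding genes, 24 long noncoding RNA genes and 1 transcribed pseudogene. The 331 were 1.51% of 21887 protein-coding genes. Their median length was 108 kb (93.0 to 136), beside 17.2 kb over all protein-coding genes. Among genes under 10 kb 6 of 7925 had a peak (0.0757%). The share was 2.504% at 50 to 100 kb and 16.7% among the 227 genes of 500 kb or more.

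Per length of gene the picture was flatter. Inside peaks numbered 0.333 per Mb of protein-coding gene (0.299 to 0.370), with overlapping genes counted in full. From 10 kb to 500 kb the density was between 0.342 and 0.406 per Mb in each length class. In genes of 500 kb or more it was 0.223 (0.161 to 0.300), and below 10 kb 0.184 (0.0676 to 0.401). Counting tumor peaks of any class centred in the gene, the longest genes had 0.477 per Mb (0.384 to 0.585), beside 0.564 over all protein-coding genes. Scores did not climb with gene length: the median was 5.54 at 10 to 50 kb and 4.89 in genes of 500 kb or more.

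**Figure D3:**
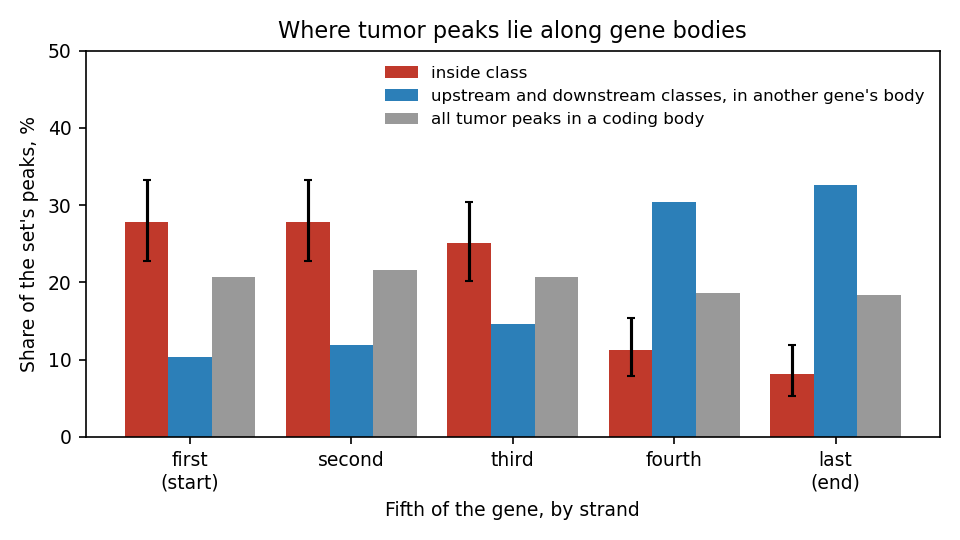
Share of peaks (%) in 5 equal segments of the gene, from start to end by strand, for inside peaks (red, n = 295, with 95% exact intervals), upstream and downstream peaks centred in the body of a protein-coding gene (blue, n = 184) and all tumor peaks so placed (grey, n = 468). Red bars are alike in the first 3 segments and lower in the last 2, blue bars are tallest toward the end, and grey bars are between 18.4 and 21.6%.

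Inside peaks were fewer toward the end of their genes, and most lay far from the start. Strand was known for 295 pairs of a peak and a gene. On a scale from 0 at the start to 1 at the end the median position was 0.353 (0.312 to 0.401). Of 5 equal segments of the gene the first and the second held 82 peaks each (27.8%), the third 74 (25.1%), the fourth 33 (11.2%) and the last 24 (8.14%). The counts were thus alike over the first 3 segments and lower in the last 2. The class label itself moved with this pattern. Upstream and downstream peaks that were centred in the body of a protein-coding gene, 228 in all, lay toward its end, with a median of 0.695 (0.643 to 0.745) over the 184 with strand. All tumor peaks in protein-coding bodies together had a median of 0.481 (0.438 to 0.534). Among peaks whose paired gene has a listed start, it was also the gene with the nearest listed start for 233 of 298 inside peaks (78.2%), 328 of 536 upstream peaks (61.2%) and 148 of 276 downstream peaks (53.6%). The peaks of other classes in gene bodies included one of −log10 q 597 in Ablim1, an actin-binding gene, which the table pairs as upstream of Afap1l2 (chr19:57113444-57113601; chosen after its value was seen).

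The median distance from the centre of an inside peak to the nearest listed start of its gene was 23.5 kb, with quartiles of 10.5 and 68.9 kb. Within 1 kb lay 2 of 295 peaks (0.678%), within 5 kb 37 (12.5%) and within 50 kb 200 (67.8%). The label bears on the shortest distances, since an inside peak cannot span the outer start of its gene. Within 5 kb the strongest were in Zbtb46, where the peak of 108 lay 3823 bp before an inner start, 2700054A10Rik (1489 bp) and Ankar (4189 bp). Sftpb, a surfactant protein gene, had one of 41.1 at 1635 bp. Sftpb was chosen after its value was seen. A score of 10 or more was reached by 21.6% of the 37 peaks within 5 kb (9.83 to 38.2), 22.7% of the 163 at 5 to 50 kb and 29.5% of the 95 beyond 50 kb (20.6 to 39.7), with overlapping intervals.

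**Figure D4:**
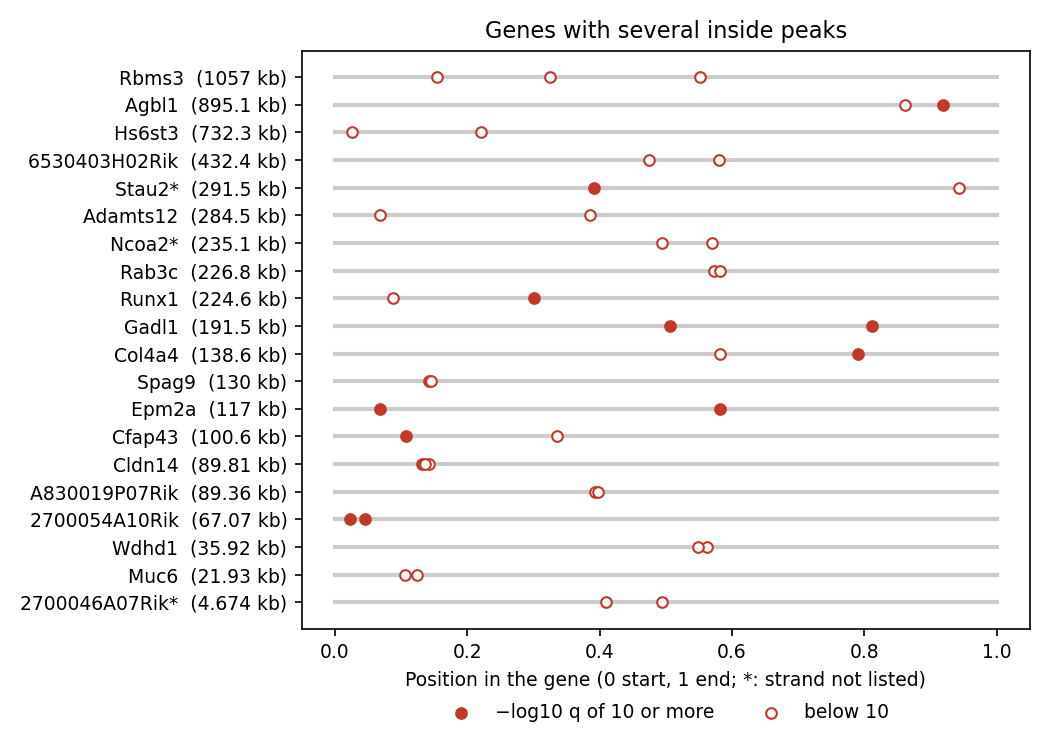
Positions of inside peaks along 20 of the 21 genes with 2 or more, from start (0) to end (1) by strand, genes ordered by length; an asterisk marks genes whose strand was not listed, drawn from the lower coordinate. Filled points have a −log10 q of 10 or more, and in 3 genes all points are filled.

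Several peaks in one gene were uncommon. Of 364 genes 343 had 1 inside peak, 19 had 2 and 2 had 3. The 21 genes with more than 1 held 44 peaks and had a median length of 192 kb (89.8 to 292). In 9 of them neighbouring peaks lay within 10 kb, in 7 of these within 1 kb, so that 12 genes had peaks at places well apart.

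The 2 genes with 3 peaks show both forms. Rbms3, an RNA-binding protein gene of 1057 kb, had peaks of 9.17, 6.66 and 5.20, with gaps of 180400 and 239638 bp between them. Cldn14, a tight junction gene, had peaks of 13.6, 5.54 and 3.32 with gaps of 137 and 301 bp, the only cluster inside a gene (chr16:93995938-93997183). Close pairs of the same kind lay in Spag9, a JNK scaffold gene (10.3 and 5.80, gap 139 bp), Wdhd1, a DNA replication gene (8.14 and 6.35, gap 165 bp), Muc6, a mucin gene (4.40 and 3.37, gap 181 bp), A830019P07Rik (7.19 and 3.52) and 2700046A07Rik (6.35 and 4.95). The gap was wider in Rab3c, a vesicle GTPase gene (8.31 and 3.27, gap 1794 bp).

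Strong peaks at separate places were found in Epm2a and Gadl1. Epm2a had its second peak, of 13.8, 59959 bp from the first. Gadl1, which encodes a decarboxylase of beta-alanine synthesis, had peaks of 36 and 14.5 at a distance of 58420 bp. With 2700054A10Rik, whose peaks lay 704 bp apart, these were the 3 genes in which every peak scored 10 or more. Runx1, a blood and tumor transcription factor gene, had 12.2 and 4.04, Stau2, an RNA transport gene, 15.8 and 2.87, Agbl1 11.8 and 7.16, and Col4a4, a basement membrane collagen gene, 10.4 and 3.20. In Cfap43 a peak of 209 was joined by one of 2.70. Ncoa2, a nuclear receptor coactivator gene, had 5.48 and 4.33, and the pairs in 6530403H02Rik (6.70 and 3.20), Hs6st3, a heparan sulfate sulfotransferase gene (3.20 and 2.29), and Adamts12, a matrix protease gene (2.22 and 1.41), were weak.

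**Figure D5:**
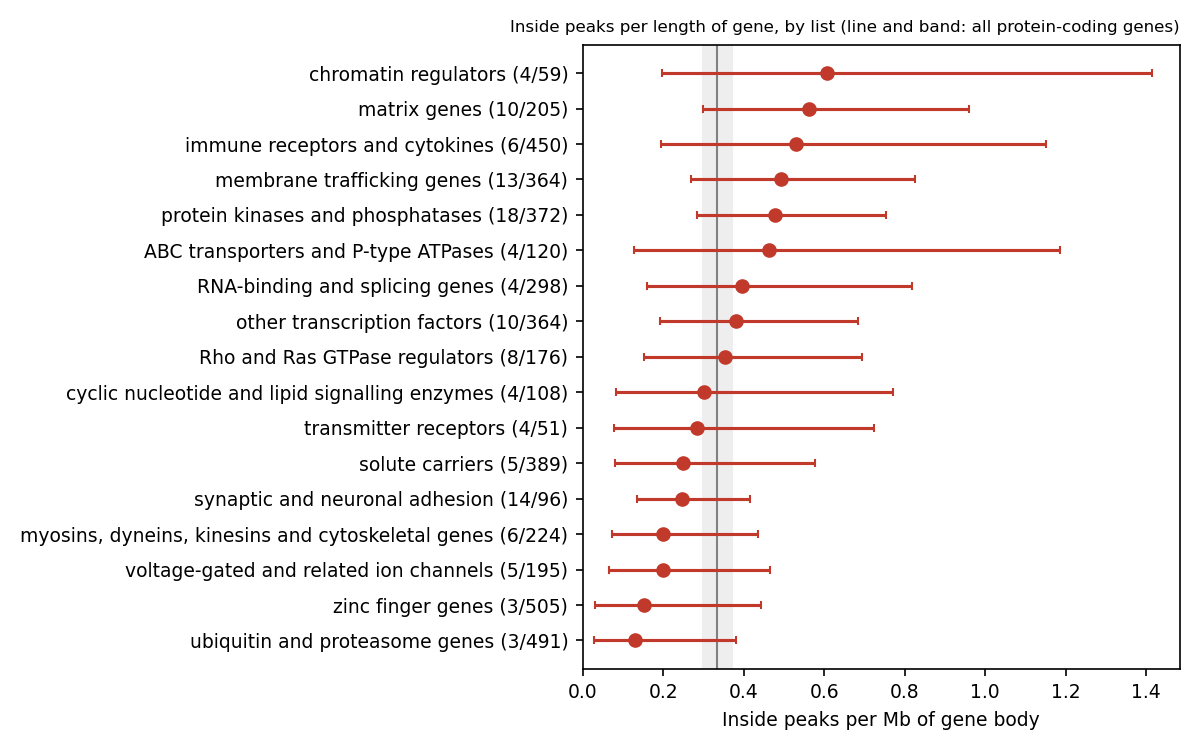
Inside peaks per Mb of gene body (horizontal axis) for gene lists with 3 or more peaks, other than gene models with no descriptive name, with the number of genes holding a peak over the number in the list. Whiskers are 95% exact Poisson intervals, and the line and band are all protein-coding genes (0.333, 0.299 to 0.370), which each whisker shown overlaps.

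Lists of growth and MYC-related genes held between 0 and 2 genes with an inside peak. At the 1.51% found over all protein-coding genes, with gene length left out of account, lists this short would hold about 1 gene or none. Each list's interval of density, which allows for length, included the 0.333 per Mb of all protein-coding genes, so these counts do not set the lists apart. The MYC and MAX network had 1 of 30, Mxi1, whose product competes with MYC for MAX (chr19:53348821-53348987, −log10 q 1.46). Mycn, Myc, Max and Mnt held 0. Ribosome biogenesis and RNA polymerase I and III genes had 0 of 55 (upper limit 6.49%), nucleotide synthesis 0 of 25, one-carbon, serine and polyamine metabolism 0 of 25, glycolysis and glutamine 0 of 27, and cell cycle and replication 0 of 52. The PI3K, AKT and mTOR list had 2 of 44: Pik3cd, a catalytic subunit (6.81), and Pik3c2g, a class II kinase (2.29). Receptor kinase and RAS genes had 1 of 61, the neurotrophin receptor gene Ntrk3 (6.81). These genes have a median length of 100 kb, and their density was 0.0976 per Mb (0.00247 to 0.544). Wwox (2.96) and Fhit (2.55), tumor suppressor genes at common fragile sites, were 2 of 29 in the p53 and apoptosis list.

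Lists of liver genes held between 0 and 2 genes with an inside peak, also not set apart from the 1.51% of all protein-coding genes, and their density intervals all included 0.333 per Mb. Hepatocyte secreted and metabolic genes, Alb included, had 0 of 63 (upper limit 5.69%), hepatocyte transcription factors and nuclear receptors 0 of 37 and the cytochrome P450, UGT, sulfotransferase and carboxylesterase families 0 of 161 (upper limit 2.27%). Lipid and cholesterol synthesis had 2 of 40: Acsl1, which activates long-chain fatty acids (20.4, chr8:46481185-46481681), and Osbpl10 (2.70). Liver progenitor and oncofetal genes had 1 of 30, the adhesion receptor gene Cd44 (3.20), and Afp held 0. Lrp5, a Wnt co-receptor gene (9.59), and Arntl, the clock gene (5.54), were the members of their lists of 50 and 18. Cholangiocyte, endothelial, macrophage, stellate and lymphocyte markers had 0 of 10, 15, 12, 14 and 17.

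Neuronal adhesion and transmitter receptor genes held a peak more often than the 1.51% of all protein-coding genes, but not more peaks by length. Synaptic and neuronal adhesion genes had 14 of 96 (14.6%), with Chl1 first, then Cntnap2 (17.4), Ntm (12.3) and Nlgn1 (4.89). These genes have a median length of 412 kb, and their density was 0.247 per Mb (0.135 to 0.415), beside 0.333 over all protein-coding genes. Transmitter receptors had 4 of 51 (7.84%) at 0.283 per Mb (0.0771 to 0.724), among them the GABA receptor gene Gabrg3 (7.88) and the glutamate receptor gene Grm7 (2.55). Ion channels had 5 of 195, with the potassium channel genes Kcnc2 (10.9) and Kcnj6 (5.54) first, then Piezo2 (4.33) and Ano2 (3.35). Cadherins had 1 of 101 (0.990%), Cdh12 (2.70), at 0.0643 per Mb (0.00163 to 0.358). Olfactory and vomeronasal receptors, the smell receptor genes, had 1 of 1480 (0.0676%), Vmn2r30 (4.33). These genes are short, with a median of 0.951 kb, and their density was 0.172 per Mb (0.00436 to 0.960).

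Signalling and trafficking families held peaks at densities whose intervals included the 0.333 per Mb of all protein-coding genes, of which 1.51% held a peak. Protein kinases, phosphatases and their named partners had 18 of 372, at 0.477 per Mb (0.283 to 0.754). Besides Cdk5rap2, which is not itself a kinase, they were led by Dusp5, a MAP kinase phosphatase gene (29.7, chr19:53539739-53540056), Ppp1r14c (10.9) and Camk2g (9.50). Membrane trafficking genes had 13 of 364 at 0.492 per Mb (0.269 to 0.826), with Vps13d, the clathrin adaptor gene Ap2a2 (26.4), the synaptic release gene Rims2 (21.0) and Stx3 (10.6). GTPase regulators had 8 of 176, led by Dock1 (18.8), Dock9 (18.04), Arhgap15 (13.8) and Elmo1 (8.40); DOCK and ELMO proteins together activate RAC. Cyclic nucleotide and lipid signalling enzymes had 4 of 108, Plce1 (8.14), Pde1c (3.27), Pde4a (3.20) and Plcl2 (1.3).

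The next 5 lists are read beside the 1.51% of all protein-coding genes, and the density interval of each included 0.333 per Mb. Matrix genes had 10 of 205 (4.88%) with 13 peaks, 0.562 per Mb (0.299 to 0.960). Thsd7b (15.3) led, followed by 3 collagen genes, Col4a4, Col23a1 (6.35) and Col19a1 (5.54). Solute carriers had 5 of 389 (1.29%), near the overall share, with Slc8a1, Slc9a2 (8.14), Slco1a4 (4.64) and Slc38a9 (4.33) ahead. ABC transporters and P-type ATPases had 4 of 120, Abca4 (10.4) and 3 phospholipid flippase genes, Atp8a2 (3.27), Atp8b2 (2.29) and Atp8b1 (1.98). Motor and cytoskeletal genes had 6 of 224, with Kif26b (17.7), Mtus2 (15.9), Kif6 (5.48) and Myo16 (5.37). Immune receptor and cytokine genes had 6 of 450 (1.33%), also near the overall share. Tnfsf11 (12.3), which encodes RANKL, and Il34 (10.5), a macrophage growth factor gene, were ahead of Clec3a (7.29) and Cd86 (5.48).

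Among nuclear factors, the list of other transcription factors had 10 of 364 (2.75%), beside 1.51% over all protein-coding genes. It was led by the bHLH factor gene Tcf4 (26.4, chr18:69382512-69382637), Rfx3, a cilium regulator gene (14.2), Runx1 and St18 (8.14). Zinc finger genes had 3 of 505, Zbtb46, Zfp827 (6.66) and Zfp385b (5.54). Chromatin regulators had 4 of 59, with 5 peaks: Hdac9, a histone deacetylase gene (16.9), Ncoa2, the remodeller gene Chd7 (3.27) and the SWI/SNF ATPase gene Smarca2 (3.20). RNA-binding genes had 4 of 298, Stau2, Rbms3, Adarb2 (5.54) and Eif3l (2.29), and ubiquitin genes 3 of 491, Ube2r2 (6.68), Rnf20 (5.54) and Usp46 (5.54). Mitochondrial families had 0 of 313 and microRNA and small RNA genes 0 of 1396. Both kinds of gene are short, with median lengths of 9.325 and 0.083 kb. The upper limits of their densities, 0.447 and 4.55 per Mb, lie above 0.333, so these counts do not set them apart. Gene models with no descriptive name had 33 of 25271, with 2700054A10Rik first, then 1700030F04Rik (29.9), Gm5086 (21.6) and 1700025G04Rik (19.98). For 42 of the 43 lists the interval of the density included the 0.333 of all protein-coding genes, which for the shortest lists is no more than a wide interval. The models with no descriptive name, at 0.131 per Mb (0.0922 to 0.180), were the exception. That list takes in noncoding as well as protein-coding genes, so its density and the 0.333 come from unlike sets of genes.

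Along the chromosomes the inside share of tumor peaks ran from 13.7% on chromosome 15 (10 of 73) to 34.4% on chromosome 16 (22 of 64), with wide intervals (6.77 to 23.8 and 22.9 to 47.3). Per Mb of protein-coding gene, inside peaks were densest on chromosome 19, at 0.633 (0.375 to 1.001), where Cfap43 and Dusp5 lie. Chromosome X had 2 inside peaks, 0.0434 per Mb (0.00526 to 0.157), in Rp2, a retinal GTPase regulator gene (42.2), and Cldn34d (6.11). The labels give no sex for the animals.

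Non-tumor liver had 7 inside peaks among its 54 distinct intervals on full chromosome sequences, the mitochondrial one included (13.0%, interval 5.37 to 24.9), called from 1 library of unknown depth. They lay in Gt(ROSA)26Sor (122.5), the ribosomal RNA gene Rn45s (21.6), Cntnap5b, a neuronal adhesion gene (20.3), Mycn (12.5), Ces3a, a liver carboxylesterase gene (3.23), Snx19 (2.56) and Man2a1 (1.60). Gt(ROSA)26Sor was the only gene with an inside peak in both lists. The tumor peak there was the only inside peak to overlap a non-tumor peak (0.260% of 385, and 1.82% of the 55 non-tumor peaks). Such overlap was found for 14 of all 1527 tumor peaks on assembled chromosomes (0.917%), 11 of 417 downstream peaks (2.64%) and 2 of 724 upstream peaks (0.276%). With only 55 non-tumor peaks, few overlaps were possible in any class. Scores of the lists cannot be compared with each other, and no test of a difference between the tissues is possible.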

How the data were processed

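One deposited table lists peaks of the tumor and non-tumor anti-MYCN libraries. Per the file's peak names each library was compared with input. Builds GRCm38 and mm10 and the tools MACS2, HOMER, Bowtie2 and deepTools are named per the submitters' processing notes. Calling settings and filters were not given in the sources used here. Each deposited score is a −log10 q per peak, judged from its lowest value of 1.30, just above −log10 of 0.05, and peak width is deposited in bp. The classes inside, upstream and downstream and the paired genes are the authors' labels.

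Gene positions came from a RefSeq GRCm38.p6 gene table, and strand and starts from its promoter table, which covers 276 of the 356 genes placed. Exons were not used. Shares have exact Clopper-Pearson intervals, densities exact Poisson intervals and medians exact order-statistic intervals, all at 95%. The functions were tested on simulated data. The members and the 43 gene lists were chosen with earlier results of these data known. Genes named are those of the 20 strongest peaks, genes with several peaks (20 of 21), up to 4 per list, the widest and narrowest peaks, those centred within 1 kb of a start or overlapping a non-tumor peak, and Mycn, Myc, Max, Mxi1, Mnt, Alb and Afp. A few genes that this rule names are not reported here. Alternatives changed the score, cluster, neighbour, gene table, scaffold and overlap rules. Python 3.11.15, NumPy 2.4.6, SciPy 1.17.1, pandas 2.3.3 and Matplotlib 3.10.9 were used.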

Additional observations from a re-analysis of the deposited data

How the results depend on the processing

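The class was little altered without clusters and positions shared with non-tumor liver, with scaffolds kept, or at a reciprocal overlap of 50%; 30 of 51 alternative values stayed within the interval of the reported value, or within 1.5 times a count. Counting neighbours within 10 kb once left 12 genes with 2 or more peaks in place of 21. At or above the tumor median score there were 169 inside peaks in 165 genes, 6 with several, at a median −log10 q of 10.6 and width of 228 bp, 53.3% at 10 or more, and a median position in the gene of 0.311. At a score of 10 or more there were 90 peaks, 21.3% of the tumor peaks so scored, in 88 genes, 3 with several, at medians of 17.8 for −log10 q, 274.5 bp and 0.301 for position. Fewer and stronger peaks follow from these filters' construction. With inside taken as a peak centre in a protein-coding gene of RefSeq, 583 peaks (38.2%) qualified and 0% overlapped a non-tumor peak. The inside peak shared with non-tumor liver, in the noncoding gene Gt(ROSA)26Sor, is left out by this rule. Under the rule 44 genes had several peaks, the median gene length was 139 kb and the median position was 0.481. The lower count toward gene ends therefore holds for the authors' class and not for all peaks in gene bodies. Exon shares were not run. No paired analysis was possible because every group holds a single library. Unknown depth limits every count.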
